A study of Rattus norvegicus with 14 samples.

Results

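Of the 4993 candidate transcription start sites (TSSs) of rat sciatic nerve measured by Tn5Prime, 166 were low in the nerve itself and active in cultured primary Schwann cells. They were taken as the TSSs with a mean under 5 RPM (reads for every 1000000 reads of the library) over 2 nerves and a mean of at least 15 RPM over 3 control cultures. These nerve and control values chose the TSSs, so both are given as a description with no test. The 166 TSSs belong to 166 different genes, with Pabpc1, Dclk1 and Sema4c at the top of the control cultures, and they include genes of the cell cycle, DNA repair, ubiquitin conjugation and RNA processing. Among the whole table, 2035 TSSs were under 5 RPM in nerve and 2052 were at or above 15 RPM in control cultures, so the 166 were 8.16% of the first group.

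Tn5Prime captures the 5′ ends of transcripts by template switching, so that a cluster of read starts marks a TSS. The series held 14 libraries. Sciatic nerve was represented by 2 libraries from independent nerves of wild-type rats 6 to 9 months of age. Primary rat Schwann cells were represented by 3 vehicle-treated control libraries and 3 libraries of cells given 250 µM CPT-cAMP, a membrane-permeable analog of cAMP, in medium renewed over 3 days. All 6 were wild type and came from separate populations of commercial cells in serum-containing medium. S16 cells, an immortal rat Schwann cell line with a myelinating character, were represented by 2 parental libraries, which are separate RNA samples of the same line, and by 4 ΔSOX10 libraries. The ΔSOX10 libraries came from 4 clones (labelled 1-1, 1-2, 2-1 and 2-2) in which CRISPR/Cas9 with either of 2 guide RNAs left only frameshifted Sox10 alleles. A p-value between S16 groups therefore measures the spread between clones and RNA samples of a single line. Only the ΔSOX10 lines went through transfection, puromycin selection and expansion from single cells, and no unedited clone was included. Effects of this handling cannot be told apart from those of the deletion. The authors had limited the table to nerve TSSs within 1 kb of an H3K4me3 peak that overlaps a SOX10 peak, both mapped in nerve. Other TSSs of the same genes were not analysed here.

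Schwann cells wrap peripheral axons, and most of those in an adult nerve are myelinating or ensheathing cells that no longer divide. Removed from axons and kept in serum, they divide and take on features of immature and of injury-responsive cells. Raising cAMP in culture imitates part of the axonal signal and induces myelin genes, and SOX10 is the transcription factor that the lineage needs at every stage. A TSS used in culture but little in nerve may be that of a gene used at another stage, or an alternative promoter of a gene that nerve transcribes from elsewhere.

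Library totals, read from the size of 1 read in RPM, ran from 29895599 to 79940274 reads. The nerve values of the 166 TSSs rested on a median of 123.5 reads in the first nerve and 109 in the second, and the control values on medians of 1169 to 1500 reads. PCR copies cannot be told from separate molecules, so these depths speak for counting error only. The single candidate Sox10 TSS had 90.7 and 77.5 RPM in the parental libraries and at most 0.114 RPM in any clone. Of the 11 Schwann cell markers, 8 had candidate TSSs, and their summed level was 72487 to 73525 RPM in nerve, 5949 to 6154 RPM in control cultures, 10161 to 10318 RPM in parental S16 and 146 to 400.3 RPM in the clones. Of the 13 fibroblast markers, 4 had candidate TSSs (Col1a1, Pdgfra, Pdgfrb and Clec3b), and they summed to 170 to 207 RPM in nerve, 805 to 910.2 RPM in control, 392 to 496 RPM with cAMP, 2262 to 2834 RPM in parental S16 and 2978 to 5306 RPM in the clones. Most of this sum was the main Col1a1 TSS (857 RPM in control), and Clec3b was at 0 in every cultured library. Of the leukocyte list only Csf1r had a candidate TSS (2.94 RPM in nerve, 0 in control), of the perineurial and adipocyte list only Itgb4 (48.9 RPM in nerve for its main TSS and 1.08 RPM in control), and of 14 endothelial and mural markers none. None of these markers was among the 166. The part of cell composition in the levels below was not tested, and in whole-tissue RNA fewer cells of a type and less RNA per cell cannot be told apart.

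The promoter sequences of 8 of the genes named in the results are shown, and their part in the responses was not tested. Kif22 was the gene of the cell-cycle list with the highest control level. Sema4c and Ugdh were lower both with cAMP and in the ΔSOX10 clones. Dclk1, Serinc5 and Sh3bp5 rose with cAMP and were lower in the clones, and Tpcn2 was lower in the clones. Pcdh17 rose with cAMP but was at 0.762 RPM in parental S16 cells. Each sequence is the stretch of 250 bases before the RefSeq start of the gene, from RefSeq on the GRCr8 build, written 5′ to 3′ on the strand of the gene. The TSSs were measured on the rn5 build and were not placed in these windows. The windows are chr1:191080879-191081128 (Kif22, minus strand), chr9:46297999-46298248 (Sema4c, minus), chr14:43202268-43202517 (Ugdh, plus), chr2:141782634-141782883 (Dclk1, plus), chr2:25581721-25581970 (Serinc5, plus), chr16:6654712-6654961 (Sh3bp5, minus), chr1:209875458-209875707 (Tpcn2, minus) and chr15:66632892-66633141 (Pcdh17, plus). Capitals mark matches, on either strand, to the SOX core letters ACAAAG or ACAATG, the full cAMP response element TGACGTCA or its core TGACG, the CCAAT box CCAAT, the cell-cycle homology letters TTTGAA and the TATA box TATAAA. A full cAMP response element always contains the core as well.
Kif22: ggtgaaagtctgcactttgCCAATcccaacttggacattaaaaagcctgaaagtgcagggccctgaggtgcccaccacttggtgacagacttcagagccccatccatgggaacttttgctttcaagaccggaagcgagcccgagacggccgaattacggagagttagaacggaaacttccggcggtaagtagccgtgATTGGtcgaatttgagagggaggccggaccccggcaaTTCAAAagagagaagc
Sema4c: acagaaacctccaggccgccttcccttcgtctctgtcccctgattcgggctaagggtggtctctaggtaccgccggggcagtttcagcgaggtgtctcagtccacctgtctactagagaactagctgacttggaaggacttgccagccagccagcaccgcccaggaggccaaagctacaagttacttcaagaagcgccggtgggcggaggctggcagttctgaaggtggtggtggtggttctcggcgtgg
Ugdh: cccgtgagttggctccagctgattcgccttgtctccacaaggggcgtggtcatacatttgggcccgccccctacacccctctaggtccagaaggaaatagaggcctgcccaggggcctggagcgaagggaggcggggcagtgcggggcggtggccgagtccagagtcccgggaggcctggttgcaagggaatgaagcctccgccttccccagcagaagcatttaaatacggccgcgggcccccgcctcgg
Dclk1: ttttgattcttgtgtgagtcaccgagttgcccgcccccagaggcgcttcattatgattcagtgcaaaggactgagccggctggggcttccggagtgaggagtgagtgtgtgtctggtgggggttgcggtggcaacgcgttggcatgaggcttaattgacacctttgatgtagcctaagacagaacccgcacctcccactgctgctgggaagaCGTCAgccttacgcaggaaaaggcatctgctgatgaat
Serinc5: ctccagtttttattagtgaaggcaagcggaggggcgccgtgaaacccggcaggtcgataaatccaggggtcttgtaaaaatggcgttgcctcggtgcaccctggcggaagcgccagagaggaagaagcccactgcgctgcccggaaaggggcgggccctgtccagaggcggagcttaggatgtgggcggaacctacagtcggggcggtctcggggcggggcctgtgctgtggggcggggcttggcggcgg
Sh3bp5: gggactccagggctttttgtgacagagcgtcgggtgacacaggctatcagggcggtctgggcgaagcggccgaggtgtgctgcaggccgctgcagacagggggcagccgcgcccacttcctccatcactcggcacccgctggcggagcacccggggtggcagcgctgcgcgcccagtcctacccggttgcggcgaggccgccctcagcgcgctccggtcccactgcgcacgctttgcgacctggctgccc
Tpcn2: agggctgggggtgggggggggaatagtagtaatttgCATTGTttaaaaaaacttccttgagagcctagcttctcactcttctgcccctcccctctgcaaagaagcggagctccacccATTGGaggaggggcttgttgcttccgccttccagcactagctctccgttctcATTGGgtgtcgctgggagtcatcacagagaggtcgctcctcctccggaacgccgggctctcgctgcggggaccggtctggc
Pcdh17: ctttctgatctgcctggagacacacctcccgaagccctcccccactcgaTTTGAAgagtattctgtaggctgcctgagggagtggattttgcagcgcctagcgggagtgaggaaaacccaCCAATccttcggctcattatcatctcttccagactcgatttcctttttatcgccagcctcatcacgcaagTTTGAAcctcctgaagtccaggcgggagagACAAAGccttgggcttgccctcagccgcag
The Kif22 window held a reversed CCAAT box 53 bases before the start and a reversed TTTGAA 16 bases before it, with a further CCAAT box 231 bases before it. The Pcdh17 window held ACAAAG 30 bases before the start, and the Tpcn2 window held a reversed ACAATG 214 bases before it. The Dclk1 window held a reversed core of the cAMP response element 38 bases before the start. No match was found in the windows of Sema4c, Ugdh, Serinc5 and Sh3bp5, which says only that these letters are not there.

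A RefSeq promoter was found for 143 of the 166 genes, 2 of them through an older symbol, and 134 had a single promoter in the table. In these 134 windows the letters ACAAAG occurred in 12.7%, against 10.5% of 2205 other genes of the candidate table and 16.3% of all 33469 rat promoters of the same length. ACAATG occurred in 5.22%, against 6.08% and 11.1%. The CCAAT box occurred in 38.8%, against 36.6% and 34.0%. The core TGACG occurred in 32.8%, against 34.8% and 18.2%, and the full TGACGTCA in 4.48%, against 3.67% and 1.59%. TTTGAA occurred in 5.22%, against 9.84% and 16.2%, and TATAAA in 5.22%, against 5.90% and 12.9%. Median GC content was 61.2%, close to the 60.4% of the other candidate genes and above the 51.2% of all promoters. For every motif searched, the share in the 134 windows was nearer to that of the other candidate genes than to that of all promoters.

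In nerve the 166 TSSs had a median of 3.77 RPM (1.99 to 4.99), and in control cultures a median of 22.4 RPM (15.1 to 280.3). Most were moderate in culture: 113 were under 30 RPM, 23 were at or above 50 RPM and 6 were above 100 RPM. The ratio of control to nerve ranged from 3.09 to 111, with a median of 6.57. It was at least 10 in 41 genes and at least 30 in 5. All 3 control libraries were above both nerves for every TSS. The nerves were less alike than the cultures, since 109 TSSs were higher in the first nerve, 28 differed more than 4-fold between nerves, and 83 reached 5 RPM in 1 of the nerves while none did in both. Ddr1, Atg4d and Arhgef7 had no reads in the second nerve, where the limit that a count of 0 allows was 0.0782 RPM. Just inside the nerve threshold were Scamp1 (4.99 RPM) and Nipsnap2 (4.98 RPM), and just outside were Mybbp1a and Sde2 (5.03 RPM each). Just inside the control threshold were Bloc1s6 (15.05 RPM) and Nnt (15.1 RPM), and just outside were Rnf219 (14.97 RPM) and Stard7 (14.8 RPM).

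**Figure D1:**
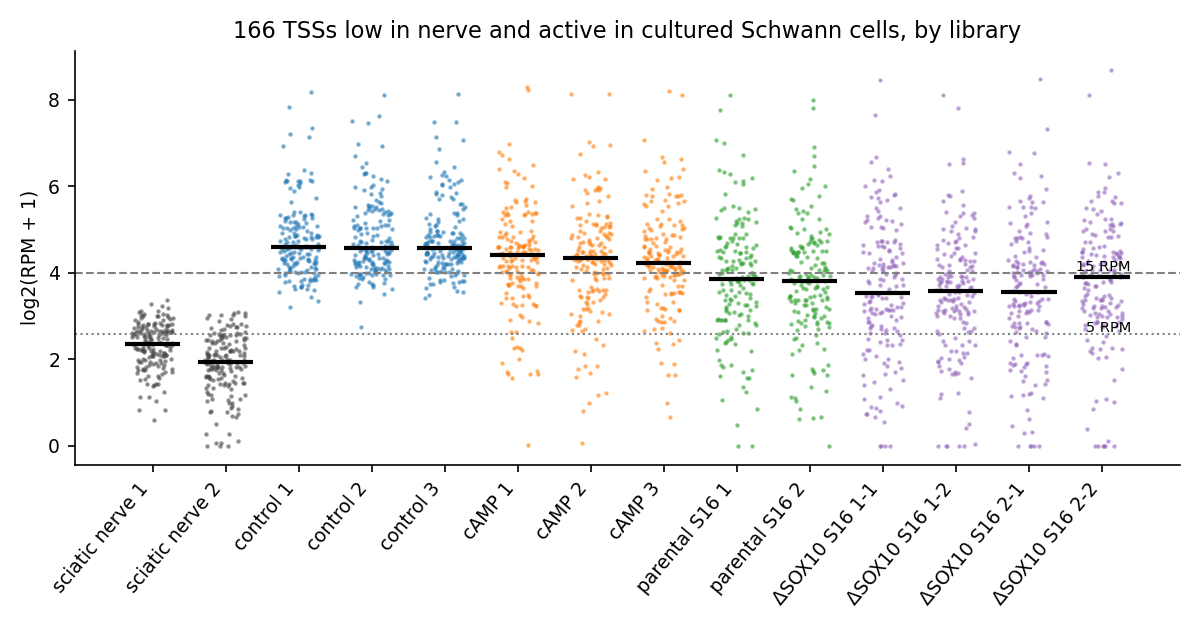
Level of each of the 166 TSSs (points) in each of the 14 libraries on a log2(RPM + 1) axis, with the library median as a black bar and with lines at 5 and 15 RPM. The library medians were 4.13 and 2.84 RPM in the nerves, 22.7 to 23.0 RPM in control cultures, 17.8 to 20.2 RPM with cAMP, 13.0 and 13.5 RPM in parental S16 cells and 10.5 to 14.04 RPM in ΔSOX10 clones.

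RPM is a share of the library, so a change in some transcripts shifts the values of others. The candidate TSSs of 16 listed myelin genes summed to 77690 to 78634 RPM in nerve and 4019 to 4090 RPM in control. What set the rescaling factors below was not tested. When all 14 libraries were rescaled by median ratios over the table, the factors were 0.640 and 0.623 for the nerves and 1.26 to 1.27 for the control libraries, and the median log2 difference between control and nerve over all 4993 TSSs moved from 0.10 to −0.77. On that scale only 30 TSSs met the same thresholds. All 30 were among the 166, which follows from the factors, since they make both thresholds stricter. The control mean stayed above the nerve mean for every one of the 166, an outcome that the thresholds and factors fixed in advance. In 150 each control library stayed above both nerves. The median log2 difference of the 166 was 2.37 on the deposited scale and 1.52 on the rescaled one. The primary cells were also sequenced on another model of instrument than the nerves, which cannot be told apart from culture, whereas the S16 and nerve libraries share their model of instrument.

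The genes with the highest control levels were of several kinds. Pabpc1 encodes the main cytoplasmic poly(A)-binding protein. Its TSS (chromosome 7, 75570188 to 75570197 on rn5, minus strand) had 2.68 and 2.37 RPM in the nerves and 287, 276 and 279 RPM in control cultures. It stayed between 252 and 413 RPM in every other cultured library. The table also lists a neighbouring Pabpc1 TSS 413.5 bp away at 2.17 RPM in nerve, and processed copies of this gene exist in mammalian genomes, so the mapping of its reads is uncertain. Dclk1, a microtubule-associated kinase of migrating and process-bearing cells, had 5.18 and 1.72 RPM in the nerves and 227, 195 and 176 RPM in control (chromosome 2, 164062547 to 164062592). Sema4c, a membrane semaphorin, had 3.75 and 1.85 RPM in the nerves and 146, 174 and 179 RPM in control (chromosome 9, 42793120 to 42793191). Kif22, a chromokinesin that pushes chromosomes outward on the spindle, had 1.91 and 4.33 RPM in the nerves and 140, 125 and 133 RPM in control (chromosome 1, 205441619 to 205441735). Map2k1, the kinase MEK1 of the ERK cascade, had 4.82 and 3.13 RPM in the nerves and 121, 121 and 114 RPM in control (chromosome 8, 69431803 to 69431906).

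Other genes high in control included adhesion and transcription genes. Ncam1, an adhesion molecule that immature and non-myelinating Schwann cells carry, had 4.01 and 3.65 RPM in the nerves and 78.2, 103 and 93.4 RPM in control (chromosome 8, 52755507 to 52755699). Flrt3, an adhesion protein with leucine-rich repeats, had 2.64 and 7.11 RPM in the nerves and 68.6, 77.2 and 86.1 RPM in control (chromosome 3, 141147011 to 141147093). Nipsnap3b, a mitochondrial protein, had 6.15 and 0.0521 RPM in the nerves and 67.5 to 85.8 RPM in control. Fos, the immediate early AP-1 subunit, had 4.11 and 3.86 RPM in the nerves and 81.6, 59.8 and 79.5 RPM in control (chromosome 6, 116252519 to 116252623). Npdc1, a neural protein, had 3.01 and 5.86 RPM in the nerves and 162, 179 and 139 RPM in control, but a stronger Npdc1 TSS lay 99.5 bp away (51.8 ± 8.04 RPM in nerve and 520 ± 33.7 RPM in control). Snai2, the zinc-finger repressor Slug of neural crest and mesenchymal cells, had 6.76 and 0.208 RPM in the nerves and 60.8, 39.3 and 75.3 RPM in control (chromosome 11, 93465025 to 93465073).

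Parental S16 cells, whose libraries did not enter the choice of the TSSs, also used most of them. At or above 5 RPM were 143 of 166 (86.1%), compared with 15.1% of the other 1869 TSSs under 5 RPM in nerve and 98.1% of the other 1886 TSSs at or above 15 RPM in control. At or above 15 RPM were 75 (45.2%), compared with 2.30% and 86.2%. Both parental libraries stood above both nerves in 129 TSSs (77.7%), compared with 12.0% and 68.6%, and with 35.4% of all TSSs. On the median-ratio scale this count was 99, and the parental mean exceeded the nerve mean in 130 TSSs in place of 151. The S16 level was as a rule below the control level: 134 were lower and 32 higher than the control mean, and the median was 13.9 RPM. The levels are compared without a test, since the nerve and control values were fixed by the choice.

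**Figure D2:**
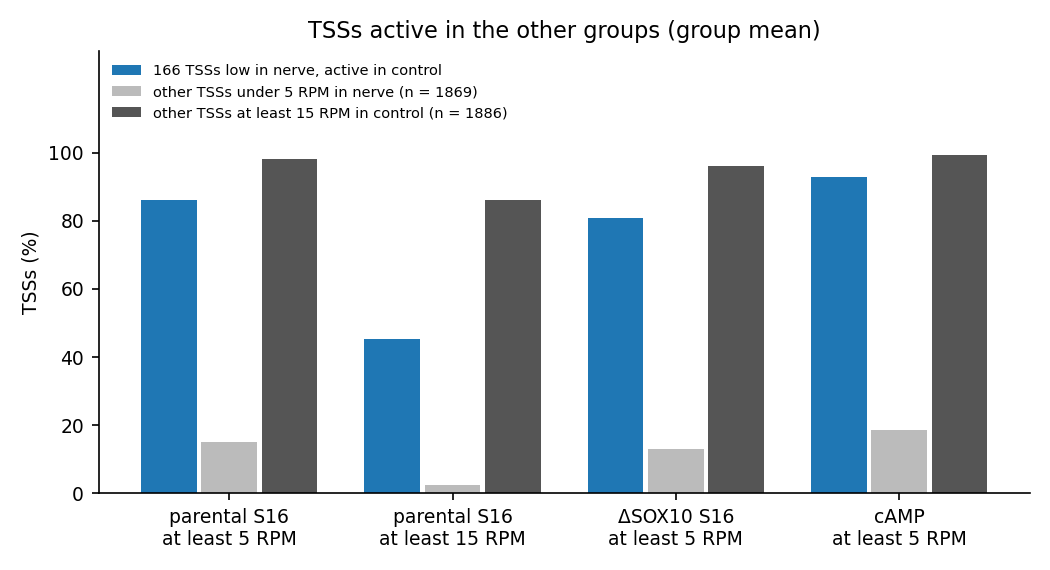
Percentage of TSSs whose group mean reached the level under each set of bars, for the 166 TSSs (blue), the other TSSs under 5 RPM in nerve (light grey) and the other TSSs at or above 15 RPM in control cultures (dark grey). The 166 stood at 86.1% for 5 RPM in parental S16 cells, between 15.1% and 98.1%.

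The S16 order differed from the control order at its ends. Snai2 reached 215 and 222 RPM in parental S16 cells, above every control library. Fkbp10, an endoplasmic reticulum chaperone of collagen (chromosome 10, 88119570 to 88119649), had 126 and 118 RPM in S16 against 70.1, 64.4 and 46.9 RPM in control and 4.98 and 1.95 RPM in nerve. Fos had 134 and 102 RPM and Ncam1 had 104 and 87.5 RPM, where Ncam1 overlapped its control range of 78.2 to 103 RPM. At the other end, 5 TSSs were under 1 RPM in S16. Itgb8, the β8 integrin subunit, had no reads in either parental library, Ckb, brain-type creatine kinase, had 0 and 0.570 RPM, and Card19, an adaptor of the CARD family, had 0.791 and 0.544 RPM. Pcdh17, a protocadherin of cell adhesion, had 0.384 and 1.14 RPM, and Nmt2, an N-myristoyltransferase, had 1.09 and 0.596 RPM. In the control cultures these 5 had means of 15.9 to 20.3 RPM.

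With cAMP, all 166 TSSs passed the filter on low values, 38 fell, 13 rose and 115 were not called (limma, Benjamini-Hochberg adjusted p under 0.05 over 4119 TSSs). Of all TSSs tested, 11% fell and 12.9% rose. Among the 2052 TSSs at or above 15 RPM in control, which like the 166 were bound to be high in control, 19.4% fell and 14.4% rose. The 166 stood at 22.9% and 7.83%. Their median log2 fold change was −0.34, against 0.02 over all TSSs tested and −0.08 over those at or above 15 RPM in control. The control libraries enter both the choice and this comparison, so the counts are a description. Groups did not overlap in 68 of the 166 (41.0%, against a background of 36.6% of all TSSs tested and 46.7% of those at or above 15 RPM in control), 53 of them lower (17.4% and 27.1%) and 15 higher (19.2% and 19.6%). Even with cAMP, 154 TSSs stayed at or above 5 RPM. The other 12 dropped under 5 RPM, and all 12 were called lower. Every cAMP library was above both nerves in 147 TSSs on the deposited scale and in 115 on the median-ratio scale. With all 14 libraries in the fit, 5 rather than 13 were called higher, and without the second cAMP library 8.

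The TSSs that fell furthest with cAMP reached the level seen in nerve. Snai2 went from 58.5 ± 18.1 RPM (SD, n = 3) to 1.96, 0.0535 and 5.60 RPM, a log2 fold change of −4.39 ± 0.50 (SE, limma adjusted p = 5.64e-07). Every cAMP library of Snai2 lay below every control library and no higher than the first nerve. Ehbp1l1, an adaptor between membranes and actin, went from 34.9, 41.7 and 26.8 RPM to 5.22, 0.999 and 0.587 RPM (−3.69 ± 0.48, limma adjusted p = 3.41e-06; chromosome 1, 228017340 to 228017382). Klhdc8b, a kelch protein linked to cytokinesis, went from 15.8, 14.7 and 19.1 RPM to 0.0125, 1.32 and 2.11 RPM (−3.17 ± 0.51, limma adjusted p = 6.58e-05). Its cAMP values were under its nerve values of 4.28 and 4.95 RPM. Aqr, an intron-binding helicase of the spliceosome, had 23.3 ± 3.35 RPM in control and 3.44 ± 2.15 RPM with cAMP, and Thap2, a zinc-finger protein, had 16.8 ± 4.99 and 2.25 ± 1.48 RPM. The other TSSs of the 12 that ended under 5 RPM, named here after their values were seen, were Ets1, Zfp36, Adam9, Rnf2, Card19, Nkiras1 and Nnt, at 2.76 to 4.67 RPM with cAMP.

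Other TSSs fell with cAMP and remained far above nerve. Kif22 went from 133 ± 7.15 RPM to 16.5, 23.9 and 21.3 RPM (log2 fold change −2.64 ± 0.19, limma adjusted p = 3.73e-10). Sema4c went from 166 ± 17.8 RPM to 46.5, 33.8 and 28.8 RPM (−2.19 ± 0.18, limma adjusted p = 2.91e-09). Map2k1 went from 119 ± 3.83 RPM to 40.7, 32.9 and 45.5 RPM (−1.57 ± 0.17, limma adjusted p = 2.31e-07). For all 3 genes the groups did not overlap, and the lowest cAMP library was above the higher nerve (4.33, 3.75 and 4.82 RPM). Cdkn2aipnl, a regulator of ribonuclease XRN2, went from 69.2 ± 7.98 to 18.1 ± 5.21 RPM, and Tnip2, an inhibitor of NF-κB signalling, from 64.9 ± 5.67 to 32.7 ± 7.28 RPM. Npdc1 fell by 0.62 ± 0.14 on the log2 scale (limma adjusted p = 0.00237), while its stronger TSS rose by 0.23 ± 0.08 to 608 ± 36.3 RPM (limma adjusted p = 0.0442). With all 14 libraries in the fit the calls of Npdc1 and Tnip2 were lost (limma adjusted p = 0.495 and 0.0569).

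The 13 TSSs that rose with cAMP included 5 that rose by at least 1 on the log2 scale. Sh3bp5, an SH3-binding protein that activates Rab11, went from 11.3, 11.8 and 24.1 RPM to 49.9, 47.8 and 59.8 RPM (1.75 ± 0.28, limma adjusted p = 5.11e-05; chromosome 16, 7472936 to 7473014). Pcdh17 went from 12.1, 20.5 and 24.3 RPM to 48.6, 49.7 and 47.1 RPM (1.36 ± 0.26, limma adjusted p = 0.000392; chromosome 15, 71179805 to 71179877). Eef1b2, an elongation factor subunit, went from 22.9 ± 0.717 to 59.2 ± 12.7 RPM at a TSS 3 bp wide, and as for Pabpc1 the mapping of its reads is uncertain. Utp14b, a ribosome biogenesis factor, went from 29.2 ± 12.3 to 67.3 ± 10.9 RPM (not called with all 14 libraries in the fit, limma adjusted p = 0.0687), and Serinc5, a membrane protein named for the incorporation of serine into lipids, from 20.02 ± 6.01 to 40.4 ± 1.29 RPM. Fos rose from 73.6 ± 12.0 to 129 ± 5.03 RPM (0.81 ± 0.15, limma adjusted p = 0.00029), and Dclk1 from 200 ± 25.6 to 289 ± 9.02 RPM (0.54 ± 0.11, limma adjusted p = 0.000667). Each of these 7 had all cAMP libraries above all control libraries, and for all of them cAMP took the TSS further from its nerve level. Flrt3 and Ddb1 were also called, at 0.50 and 0.51, and each lost its call without the first or the second cAMP library, without 1 of the control libraries and with all 14 libraries in the fit (limma adjusted p between 0.0572 and 0.267 for Flrt3 and between 0.0583 and 0.252 for Ddb1 where lost).

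**Figure D3:**
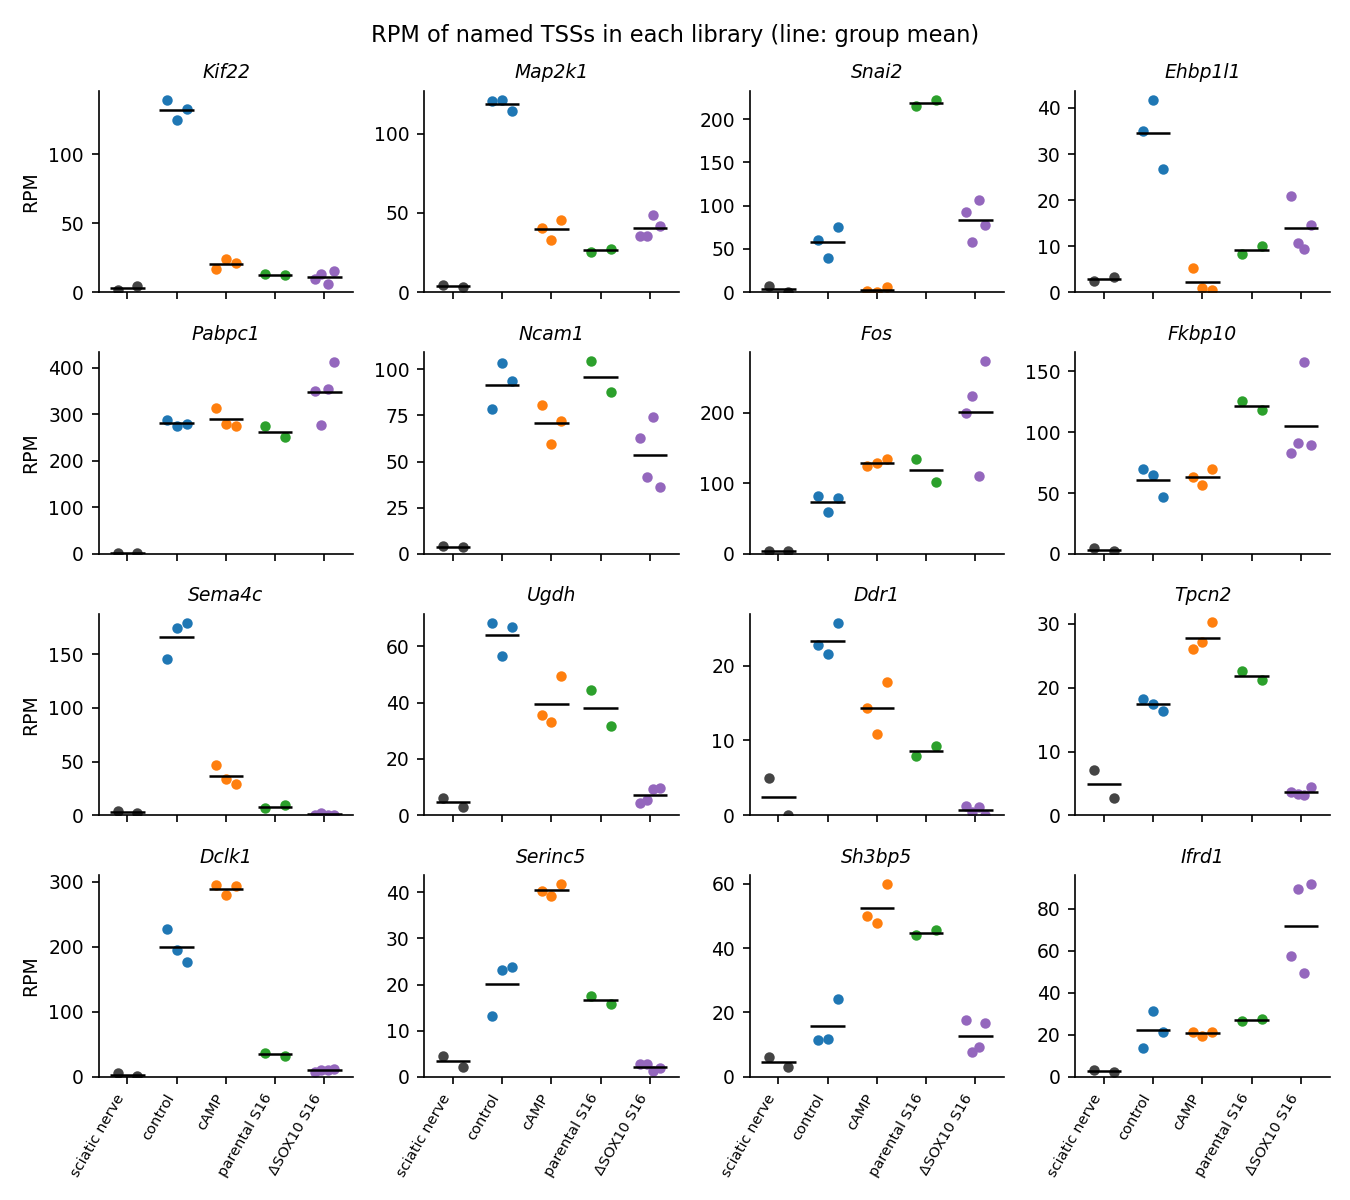
RPM of 16 named TSSs in each library, on linear axes that start at 0, with 1 point per library and a line at the group mean. The nerve values are at most 7.06 RPM in every panel, Snai2 and Ehbp1l1 return to that level with cAMP, and Sema4c, Ugdh, Ddr1, Tpcn2, Dclk1, Serinc5 and Sh3bp5 are lower in ΔSOX10 clones than in parental S16 cells.

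Grouped by function, 49 of the 166 genes were in at least 1 gene list and 117 in none. The lists were chosen with results of these data known, and their counts are set beside those of all their TSSs. The cell cycle and mitosis list had 7 of its 49 candidate TSSs among the 166: Kif22, Cdkn2aipnl, Mis12, Ube2s, Chfr, Anapc7 and Anapc15. With cAMP, Kif22 and Cdkn2aipnl fell and the other 5 were not called. Of these 2, Kif22 acts on the mitotic spindle, whereas Cdkn2aipnl is known from XRN2 regulation. The 7 had a median log2 fold change of −0.47. Over all 40 TSSs of the list that were tested, 3 fell and 5 rose with a median of 0.06. Mis12, a kinetochore protein, had 32.3 ± 7.13 RPM in control and 23.0 ± 4.91 RPM with cAMP, which was not called (−0.47 ± 0.26, limma adjusted p = 0.22). The summed level of the list was 619 to 709 RPM in nerve and 1631 to 1686 RPM in control. The DNA repair and replication list gave 3 of 29 TSSs, Ddb1, Parg and Ercc3. Ddb1, the damage-binding subunit of a ubiquitin ligase, rose from 70.9 ± 7.41 to 101 ± 7.36 RPM with cAMP. Parg, which removes poly(ADP-ribose), had 20.6 ± 6.25 and 19.1 ± 4.97 RPM, and the helicase Ercc3 had 15.7 ± 4.92 and 12.6 ± 3.76 RPM, and neither was called. Over the 27 TSSs of the list tested, 2 rose and 2 fell.

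The list of ubiquitin conjugation and removal was the most frequent, with 16 of 74 TSSs (21.6%, where 166 of 4993 TSSs in all were chosen). With cAMP, 2 of the 16 fell (Ube3a and Rnf2), 1 rose (Ddb1), and the median log2 fold change was −0.19, against 9 lower, 3 higher and a median of −0.21 over the 65 TSSs tested. Dcaf8, a substrate receptor, had 45.9 ± 10.7 RPM in control and 41.4 ± 7.06 RPM with cAMP, and the F-box protein Fbxo22 had 35.3 ± 4.56 and 24.5 ± 5.33 RPM, and neither was called. The list of immediate early and stress response genes gave 9 of 60 TSSs, of which Fos rose and Tnip2, Zfp36 and Nkiras1 fell with cAMP. Over 47 TSSs tested, 11 rose and 15 fell. Rcan1, a calcineurin inhibitor, had 71.0 ± 20.5 RPM in control and 80.8 ± 1.63 RPM with cAMP. The list of immature, repair and mesenchymal state regulators gave 5 of 67 TSSs, Ncam1, Snai2, Dpysl2, Pcdh17 and Alcam, of which Pcdh17 and Alcam rose and Snai2 fell, while 19 of its 64 TSSs tested rose and 5 fell. Ncam1 had 70.7 ± 10.6 RPM with cAMP (−0.37 ± 0.16, limma adjusted p = 0.115), and Dpysl2, a cytoskeletal protein of growing processes, had 22.4 ± 3.24 RPM in control and 24.1 ± 5.81 RPM with cAMP.

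The list of collagen and matrix biosynthesis gave 4 of 43 TSSs: Ugdh, Fkbp10, Cant1 and Antxr2. Ugdh, which makes UDP-glucuronic acid for glycosaminoglycans, fell from 64.0 ± 6.45 to 39.4 ± 8.64 RPM with cAMP (−0.70 ± 0.20, limma adjusted p = 0.0119). Fkbp10 had 60.5 ± 12.1 and 63.1 ± 6.51 RPM, and the calcium-activated nucleotidase Cant1 had 19.4 ± 3.07 and 12.8 ± 5.38 RPM, and neither was called. Over the 37 TSSs of this list tested, 12 fell and 3 rose. RNA processing, RNA modification and ribosome biogenesis gave 9 of 121 TSSs, of which Aqr fell and the other 8 were not called, against 8 lower and 7 higher of 109 tested. Ddx54, a helicase of the nucleolus, had 31.5, 36.3 and 37.2 RPM in control and 20.7, 24.3 and 26.3 RPM with cAMP and was not called, and Trmt1l, a tRNA methyltransferase relative, had 25.1 ± 9.31 and 18.4 ± 1.89 RPM and was not called either. Of the 154 TSSs of the 16 listed myelin genes in the table, 1 was among the 166, a secondary TSS of Cmtm5. The list does not hold every gene linked to myelin, and Serinc5 and Mtmr2, a phosphatase whose loss causes demyelinating neuropathy, were among the 166 outside it. Over 118 myelin TSSs tested, 56 rose and 3 fell with cAMP.

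In the ΔSOX10 clones, the shares of these TSSs that were called were near those of all TSSs tested. An unadjusted limma p under 0.05 was found in 34 of the 163 tested, beside 775 of all 3875. Of 163 tested, 10 were lower in ΔSOX10 clones, 3 were higher and 150 were not called (limma, adjusted p under 0.05 over 3875 TSSs). These were 6.13% and 1.84% of the members tested, beside a background of 6.55% lower and 1.65% higher over all TSSs tested. Among TSSs under 5 RPM in nerve the background was 3.52% lower and 1.23% higher. The median log2 fold change was −0.17, against −0.18 over all TSSs tested. TMM scaling moved the latter to −0.05, and 10 were lower and 4 higher on that scale. Card19, Itgb8 and Pcdh17 were not tested because they did not pass the filter on low values. Groups did not overlap in 49 TSSs (30.1%, background 29.4%), 35 of them lower (background 21.7%) and 14 higher (7.69%). Calls depended on the pair of parental libraries: without the first, 1 member (Snai2) was still called lower and 1 (Nmt2) higher, and without the second, 2 (Snai2 and Ugdh) were lower and 0 higher by limma, where 5 were higher at an unadjusted p under 0.05. On all 6 libraries, edgeR's quasi-likelihood test called 3 members higher and DESeq2 called 8. Without clone 1-2, 1 was higher. Over all TSSs tested, 1.93% were called lower without the first parental library and 2.02% without the second.

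The largest decrease was that of Cmtm5, a chemokine-like membrane protein expressed in myelinating glia. Its TSS (chromosome 15, 37487435 to 37487437) had 12.2 and 23.0 RPM in parental S16 cells, 0.0254 RPM in clone 1-2 and no reads in the other 3 clones. That is at least 219.6-fold lower, taken against the floor of 3 reads per library. The limma log2 fold change was −4.14 ± 0.40 (adjusted p = 0.000253), and without a parental library the TSS did not pass the filter. Ddr1, a collagen-activated receptor tyrosine kinase, had 7.91 and 9.25 RPM in parental cells and 1.197, 0.407, 1.15 and 0 RPM in the clones (−2.57 ± 0.46, limma adjusted p = 0.00813; chromosome 20, 5655646 to 5655846). Ddr1 had 1 candidate TSS here. The paper reports an intronic Ddr1 TSS, identified in sciatic nerve, as dependent on SOX10 by its own edgeR test. It also found transcripts from that TSS in nerve RNA by RT-PCR. In its reporter assay, the human promoter fragment lost part of its activity when the SOX10 motif was deleted. Serinc5 had 17.6 and 15.8 RPM against 2.83, 2.77, 1.31 and 1.88 RPM (−2.50 ± 0.40, limma adjusted p = 0.00448). Tpcn2, a calcium channel of lysosomes, had 22.7 and 21.2 RPM against 3.62, 3.41, 3.25 and 4.45 RPM (−2.30 ± 0.35, limma adjusted p = 0.00339; chromosome 1, 225316605 to 225316693). Ugdh had 44.4 and 31.6 RPM against 4.51, 5.29, 9.18 and 9.52 RPM (−2.30 ± 0.39, limma adjusted p = 0.00625; chromosome 14, 44299064 to 44299137). For all of these the clones lay below both parental libraries. Sema4c had 6.53 and 9.51 RPM against 0.586, 2.21, 0 and 0.314 RPM (−2.47 ± 0.52, limma adjusted p = 0.0208). Sema4c and Ddr1 lost their call with edgeR, with DESeq2, at a pseudocount of 0.1 and without either parental library, at adjusted p between 0.0515 and 0.161 for Ddr1 and between 0.105 and 0.273 for Sema4c. Serinc5, Tpcn2, Dclk1 and Sh3bp5 lost theirs without either parental library, at limma adjusted p between 0.052 and 0.163, and Ugdh without the first (0.0689).

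Among the other decreases, Dclk1 had 37.3 and 31.4 RPM in parental cells and 6.93, 11.2, 10.7 and 11.5 RPM in the clones (−1.69 ± 0.32, limma adjusted p = 0.0107). Sh3bp5 had 44.0 and 45.5 RPM against 17.5, 7.63, 9.24 and 16.7 RPM (−1.81 ± 0.38, limma adjusted p = 0.0194). Snai2 had 215 and 222 RPM against 92.8, 57.9, 107 and 77.3 RPM (−1.41 ± 0.25, limma adjusted p = 0.00837), so that every clone except 1-2 stayed above the control mean of 58.5 RPM. Nrep, a growth-associated protein named after its values were seen, had 2.51 and 2.10 RPM against 0, 0, 0.219 and 0 RPM. Of the 10 TSSs, 7 were at or above 15 RPM in parental cells, 6 were under 5 RPM in the clones, and 7 lay within a SOX10 peak. With all 14 libraries in the fit Snai2 was not called (limma adjusted p = 0.149).

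The 3 increases were smaller in number and mostly at low levels. Ifrd1, a stress-induced transcriptional coregulator, had 26.7 and 27.7 RPM in parental cells and 57.5, 89.7, 49.5 and 91.7 RPM in the clones (1.33 ± 0.29, limma adjusted p = 0.0264), at a TSS 5 bp wide. Nmt2 had 1.09 and 0.596 RPM against 8.92, 6.18, 6.28 and 8.78 RPM (2.21 ± 0.39, limma adjusted p = 0.00812). Ckb had 0 and 0.570 RPM against 6.24, 4.04, 3.22 and 2.39 RPM (1.93 ± 0.45, limma adjusted p = 0.0333), and it lost its call under 7 of the alternatives, at limma or edgeR adjusted p between 0.0542 and 0.445. In all 3 genes the clones lay above both parental libraries. Ifrd1 lost its call without clone 1-2 or either parental library (limma adjusted p between 0.0585 and 0.106), and Nmt2 without the second parental library (0.132). Neither Fos (0.71 ± 0.33, limma adjusted p = 0.29) nor Pabpc1 (0.39 ± 0.19, limma adjusted p = 0.309) was called, though the clones of Pabpc1 all lay above the parental libraries.

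By list, 1 of 4 tested TSSs of immature, repair and mesenchymal regulators (Snai2) was lower in the ΔSOX10 clones. So were 1 of 4 of collagen and matrix biosynthesis (Ugdh) and the single myelin gene TSS (Cmtm5). These lists had no other call. Among the 7 of the cell cycle, the 3 of DNA repair, the 16 of ubiquitin conjugation, the 9 of stress response and the 9 of RNA processing, 0 were called by limma and 0 by edgeR, and 2, both of stress response and both lower, had an unadjusted limma p under 0.05. Over all TSSs of those lists, 63 of 82 myelin TSSs tested were lower. The limma counts were 4 lower and 3 higher of 52 for the immature and repair list, 5 lower of 36 for matrix biosynthesis, 1 higher of 40 for the cell cycle, 1 lower of 63 for ubiquitin, 3 lower and 7 higher of 48 for stress response and 1 lower of 107 for RNA processing. Of the 27 TSSs of DNA repair, 0 were called by limma and 0 by edgeR, and 3 had an unadjusted limma p under 0.05. Of the fibroblast markers, 0 of 10 TSSs tested were called in the clones by limma and 0 by edgeR, with 1 at an unadjusted limma p under 0.05, and with cAMP 1 of 10 rose and 1 fell.

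Both comparisons called 7 of the 163 TSSs. Sh3bp5, Serinc5 and Dclk1 rose with cAMP and were lower without SOX10. Snai2, Sema4c and Ugdh fell with cAMP and were lower without SOX10. Nmt2 fell with cAMP (from 16.1 ± 2.30 to 6.30 ± 0.109 RPM) and was higher without SOX10. The cAMP calls of Serinc5 and Dclk1 were lost with all 14 libraries in the fit (limma adjusted p = 0.0631 and 0.195), that of Nmt2 without the second or the third control library (0.0685 and 0.0686), and that of Ugdh without the first or second cAMP or the first or the third control library (0.0545 to 0.0651) or with all 14 in the fit (0.163). Tpcn2 was lower without SOX10 and had 17.4 ± 0.927 RPM in control and 27.8 ± 2.20 RPM with cAMP, which was not called (limma adjusted p = 0.0832) although the groups did not overlap. Of the remaining TSSs tested in both comparisons, 41 were called with cAMP alone, 6 in the clones alone and 109 in neither.

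**Figure D4:**
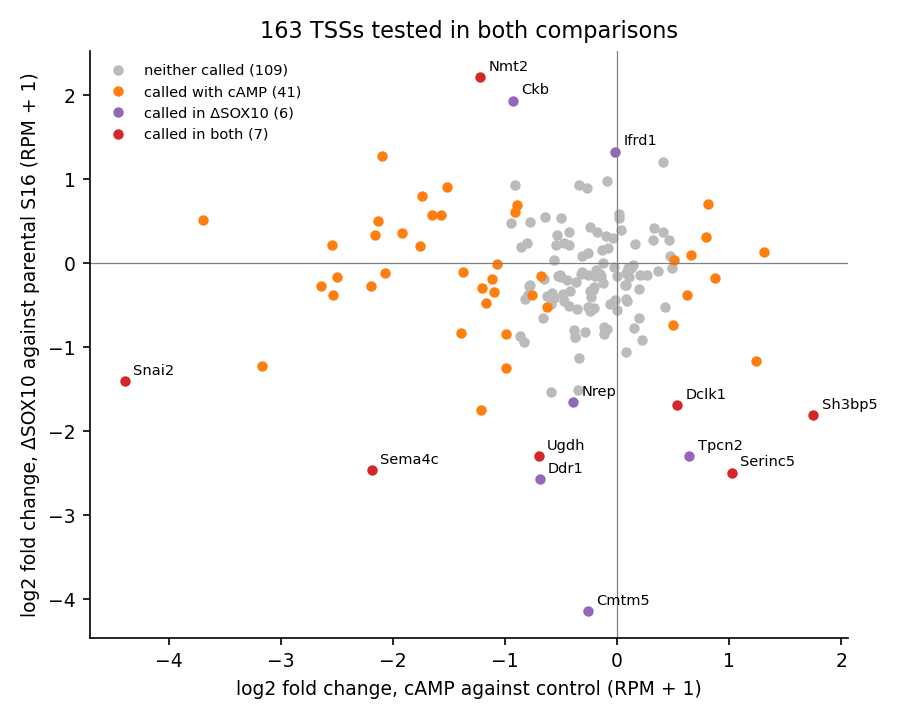
Log2 fold change with cAMP (horizontal) against log2 fold change in ΔSOX10 clones (vertical) of the 163 TSSs tested in both comparisons, on the RPM + 1 scale, coloured by which comparison called them. The 13 TSSs called in the clones are labelled, and Snai2, Sema4c and Ugdh lie at the lower left while Dclk1, Serinc5 and Sh3bp5 lie at the lower right.

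The other candidate TSSs of the same genes were set beside the chosen ones. In 125 of the 166 genes (75.3%) the chosen TSS was the only candidate, compared with 29.1% of the other TSSs under 5 RPM in nerve and 67.4% of the other TSSs at or above 15 RPM in control. In 20 genes every other candidate was also under 5 RPM in nerve. In the last 21 genes another candidate TSS reached 5 RPM in nerve, at a distance of 58 to 3325.5 bp (median 327 bp), and in 10 of them it reached 10 RPM. The chosen TSS made up a median of 24.4% of its gene's summed candidate RPM in nerve in these 21 genes, 51.3% in control and 38.8% in parental S16 cells. The choice of a low nerve and a high control value, together with the condition on the other TSS, favours a higher share in control, so these shares are a description. The share was higher in control in 18 of the 21.

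In 11 of the 21 genes the chosen TSS was the main candidate in control. Sema4c rose from 19.1% of the gene in nerve to 78.9% in control, and its other TSS, 1534.5 bp downstream, had 11.8 ± 0.137 RPM in nerve and 44.4 ± 10.8 RPM in control. Both Sema4c TSSs fell with cAMP, and the other TSS did so by 1.95 ± 0.30 on the log2 scale (limma adjusted p = 3.52e-05). That other TSS differed by 0.07 ± 0.40 in the clones and was not called (limma adjusted p = 0.942), at a parental level of 1.80 RPM. Kif22 went from 32.1% in nerve to 94.3% in control, with its other TSS 701.5 bp upstream at 6.59 ± 1.141 and 8.002 ± 3.54 RPM. Tmed2, Klhl9, Eid1 and Vps52 were at or above 92.7% in control and at or under 48.5% in nerve. At these genes the other TSS had 1.54 to 3.51 RPM in control and 5.28 to 7.95 RPM in nerve.

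In some genes with a strong nerve TSS, such as Pfn1 and Ckb, the chosen one was minor in nerve, control and parental S16 cells. Pfn1, profilin, had 373 ± 19.3 RPM in nerve and 1617 ± 93.1 RPM in control at its main TSS, and the chosen TSS was 1.04% and 1.38% of the gene. Ckb had 165 ± 26.6 and 2318 ± 111 RPM at its main TSS, and the chosen one was 2.67% and 0.851%. Cmtm5 differed, since its main TSS was higher in nerve (359 ± 17.3 RPM) than in control (228 ± 27.9 RPM), while the chosen TSS, 166 bp downstream, was 0.572% of the gene in nerve, 5.87% in control and 13.96% in S16. The main Cmtm5 TSS also fell in the clones, from 90.2 ± 4.91 to 0.0259 ± 0.0360 RPM (log2 fold change −6.47 ± 0.37, limma adjusted p = 1.54e-05). Hcfc1r1, Card19, Npdc1 and Eef1b2 had other TSSs at 50.5 to 170 RPM in nerve. The chosen Npdc1 TSS was 6.51% of the gene in nerve and 22.6% in control. In Dut the strongest other TSS had 37.4 ± 9.74 RPM in nerve. The chosen Dut TSS was 4.91% of the gene in nerve, 38.3% in control and 51.7% in parental S16 cells. Ugdh went the other way, from 43.4% in nerve to 26.1% in control, because its other TSS, 121 bp away, had 5.99 ± 2.51 RPM in nerve and 181 ± 4.13 RPM in control. That other Ugdh TSS was also lower in the clones (−1.35 ± 0.28, limma adjusted p = 0.0173).

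**Figure D5:**
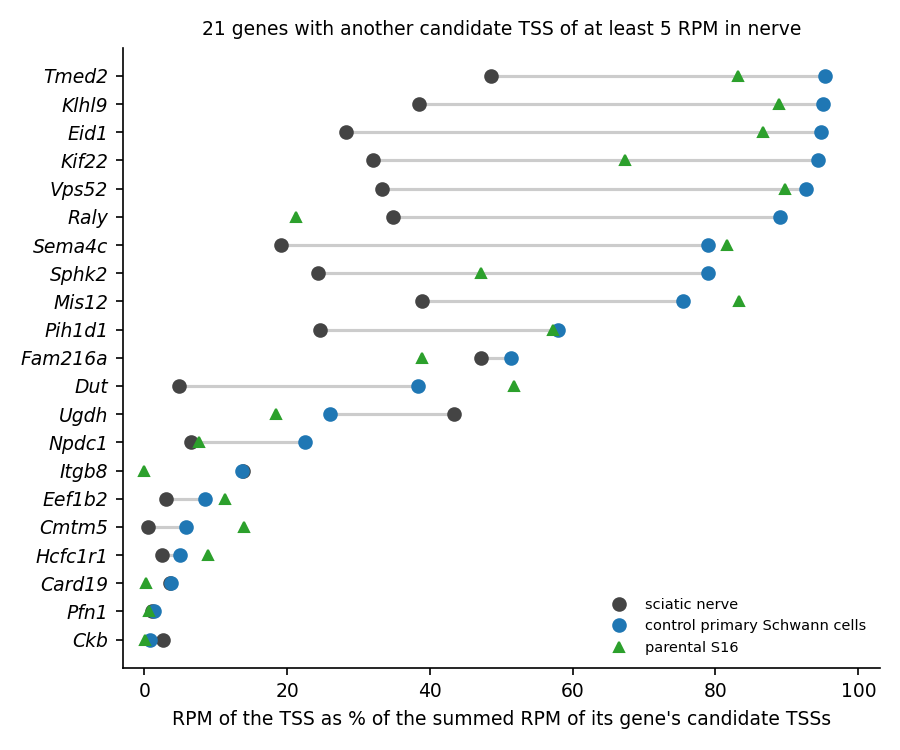
RPM of the chosen TSS as a percentage of the summed RPM of its gene's candidate TSSs (group means), for the 21 genes with another candidate TSS of at least 5 RPM in nerve, in sciatic nerve (dark circles), control cultures (blue circles) and parental S16 cells (green triangles). The share is higher in control than in nerve for 18 genes, a direction the choice of the TSSs favours, and Ugdh, Ckb and Itgb8 are the exceptions.

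A TSS on the opposite strand lay within 1 kb of 30 of the 166 (18.1%, against 17.7% of all TSSs), 27 of them head to head, and none of the 30 neighbours was itself among the 166. In 23 cases the neighbour was at or above 5 RPM in nerve, with a median of 15.4 RPM over the 30. Vps52, a vesicle-tethering subunit, lay 207 bp from Rps18, which had 652 RPM in nerve and 2203 RPM in control. Sphk2, a sphingosine kinase, lay 220 bp from Rpl18 (428 RPM in nerve and 1245 RPM in control), and Nkiras1, an inhibitor of NF-κB signalling, lay 140 bp from Rpl15 (235 and 1052 RPM). The neighbour was also higher in control than in nerve in 24 of the 30, where 2598 of all 4993 TSSs were. Every control library was above both nerves in 20 of the neighbours, as in 39.6% of all TSSs and 82.4% of those at or above 15 RPM in control. The neighbours, which were not chosen by these values, had a median plain ratio of control to nerve of 2.45 on the deposited scale. Backgrounds were taken on another scale, the log2 difference of RPM + 1, and cannot be set directly beside that ratio. Their medians were 0.10 over all TSSs and 1.30 over those at or above 15 RPM in control. With cAMP, 8 of the 30 chosen TSSs were called, beside 30.7% of the 166 and 23.8% of all TSSs tested. The neighbours of Tbcc, Prkab1 and Sh3bp5 were not tested, and among the other 5 only the neighbour of Thap2 (Zfc3h1) was called, in the same direction. Further neighbours were called where the chosen TSS was not: Rps18 and Rpl18 rose, and Derl2, Itfg1, Dnajb11 and Naa50 fell. Adam9 fell to 3.03 RPM while its neighbour Tm2d2 was not called (−0.33). These genes were named after their values were seen.

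In chromatin features that the choice did not use, the 166 were like other active TSSs. All but 1 (Pih1d1, 699 bp away) lay within an H3K4me3 peak (99.4%), compared with 77.8% of the other TSSs under 5 RPM in nerve and 98.3% of the other TSSs at or above 15 RPM in control. Within a SOX10 peak lay 121 (72.9%), compared with 32.4% and 73.4%. The TSSs had a median width of 59.5 bp (3 to 201 bp), against 28 bp and 86 bp. Only 19 (11.4%) were at most 20 bp wide, compared with 24.0% of all TSSs, and 13 of these 19 had another candidate TSS in the gene. They include Cmtm5, Eef1b2 and Zfp36 (3 bp each), Ifrd1 (5 bp) and Pabpc1 (10 bp). Both peak sets were mapped in nerve, where these TSSs were under 5 RPM.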

How the data were processed

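Tn5Prime libraries were made from rat nerve, cultured Schwann cells and the S16 line, with 5 ng of total RNA for each. Per the submitters' processing notes and methods, the authors trimmed reads (Cutadapt 1.14), aligned them to the rat rn5 genome (STAR 2.5.2a), called clusters of read starts as TSSs, counted reads per TSS (featureCounts, Subread 1.6.1) and deposited the values as RPM, each relative to all reads of its library. The deposited table keeps nerve TSSs within 1 kb of an H3K4me3 peak that overlaps a SOX10 peak. It also holds the authors' log2 fold changes and FDR-corrected p-values (edgeR 3.24.3) for both comparisons, which were not used.

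TSSs were chosen by a nerve mean under 5 RPM and a control mean of at least 15 RPM. The choice and the gene lists were made with earlier results of these data known. Each comparison was tested in its own 6 libraries with limma 3.58.1 (R 4.3.3, trended empirical Bayes, two-sided) on log2(RPM + 1), over the TSSs above 1 RPM in at least 2 of the 6, with Benjamini-Hochberg adjustment over all of them and a threshold of 0.05. Fold changes on this scale understate those of low TSSs. The step of the values gave whole reads (within 0.05 reads) for 92.2% to 100% of values, the rest being large values that were deposited rounded. In the second nerve the step rests on 53 values of up to 20 reads. On these reads edgeR 4.0.16 called 785 TSSs with cAMP and 254 in the clones, and DESeq2 1.42.0 was also run. Other alternatives were pseudocounts of 0.1 and 5, other filters, TMM and median-ratio scaling, all 14 libraries in the fit, a replicate block, other thresholds of the choice and each library left out. Same-numbered control and cAMP libraries did not deviate together (correlations 0.00751 to 0.0379). Values are mean ± SD over libraries, and fold changes carry ± SE. Depths set a floor of 3 reads per library (0.0375 to 0.1 RPM).

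Genes were named by rule: the 10 highest in control, the 6 largest non-overlapping calls in each direction of each comparison, the 4 highest and 4 lowest in parental S16, the 3 highest of each list, the 6 with the strongest other TSS in nerve and those at the thresholds. Genes named outside it were chosen after their values were seen. No rn5 annotation was used, so exon, intron and UTR positions are not given. Statistics were tested on simulated data.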

Additional observations from a re-analysis of the deposited data

Results flagged for a closer look

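Of 48 TSSs examined over the 4 ΔSOX10 clones, 6 had 1 clone far from the other 3 by Dixon's ratio, which chance gives in about 1 of 20 groups. Npdc1 had 17.6 RPM in clone 2-2 and 0.866 to 2.54 RPM in the others, on both sides of its parental values of 4.41 and 6.71 RPM. Nipsnap3b had 90.6 RPM in clone 2-1 and 54.3 to 56.8 RPM in the others. Fkbp10 had 158 RPM in clone 2-1 and 82.6 to 91.3 RPM in the others. Ddx54 had 28.4 RPM in clone 2-2 and 17.0 to 17.8 RPM in the others. Klhdc8b had 3.39 RPM in clone 2-2 and at most 0.546 RPM in the others, and Cmtm5 had 0.0254 RPM, the value of 1 read, in clone 1-2 and no reads in the others.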

How the results depend on the processing

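The number of TSSs chosen depended on the thresholds: 166 became 41 with a nerve mean under 3 RPM, 83 with both nerves under 5 RPM, 275 with a control mean of at least 10 RPM, 53 with at least 30 RPM, 109 with each control library at least 15 RPM and 30 under median-ratio scaling. Leaving out 1 nerve or control library gave 158 to 233, of which 106 of 158 without the second nerve and 143 of 233 without the first were among the 166, and 152 to 155 of 162 to 167 without a control library. Parental S16 cells reached 5 RPM in 143 and 15 RPM in 75 of them, and 140 to 141 with 1 parental library left out. Another TSS of the gene reached 5 RPM in nerve in 21 and 10 RPM in 10 genes, and 16 to 19 genes with 1 nerve. With cAMP, 38 lower became 30 to 34 and 13 higher became 8 to 13 when 1 library was left out, and 5 were higher with all 14 libraries in the fit. In the clones, 10 lower became 1 to 10 and 3 higher became 0 to 3 when 1 library was left out (5 were higher at an unadjusted limma p under 0.05 in the fit with 0), and DESeq2 called 8 higher. Leaving out a parental library leaves that group with 1, which is then taken to vary like the clones. With the replicate block, 13 were higher and 37 lower with cAMP, but the replicate numbers did not pair the libraries. Of 97 named results, 39 were called, and 17 of these kept their call under every alternative run, 22 lost it under at least 1, 9 others gained one, and 0 called values changed sign. Beyond the losses given in the report the cause was not tested. At nerve depth, 3 reads are 0.1 and 0.0782 RPM, well under the nerve values of most of the TSSs.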
